A study of Mus musculus with 93 samples.

Results

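The drug-metabolizing enzyme families of the liver were followed by 71 probesets for 59 genes, out of 11412 probesets on the arrays that were not controls. They were chosen by name: probesets with a single gene symbol beginning with Cyp1, Cyp2, Cyp3, Gst, Ugt1, Ugt2, Sult or Ces, apart from Cyp2b10, Cyp3a11, Cyp2c50, Cyp2c54, Cyp2c55, Cyp2d12 and Sult1e1. Cyp2 and Cyp3 symbols with a number of 2 digits, such as Cyp27a1 and Cyp39a1, were also left out. No Ugt1 probeset carried a single symbol, and Cyp17a1, a steroid hydroxylase of hormone synthesis, entered through its name only. A filter on low variation left 67 probesets for 55 genes to be tested, and Ces1c, Gstz1, Sult2a8 and Cyp2d26 were the genes it left out. The tested members were 9 carboxylesterase (Ces) probesets, 2 named Cyp1, 19 of Cyp2, 2 of Cyp3, 21 of the glutathione S-transferases (Gst), 6 of the sulfotransferases (Sult) and 8 of the glucuronosyltransferases (Ugt).

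Expression was measured in the livers of 93 male mice, 1 Affymetrix array for each. WT mice (129S1/SvImJ) and PPARα -/- mice (129S4/SvJae) were kept beforehand on a purified AIN76A diet with olive oil in place of corn oil, were fasted for 4 h, and were killed 6 h after a gavage of 400 µl. PPARα -/- mice lack the nuclear receptor PPARα in all tissues, and since the genotypes also differ in substrain, the receptor and the strain cannot be told apart. The gavage was a triglyceride made of 1 fatty acid (oleic acid C18:1, EPA C20:5, DHA C22:6, linoleic acid C18:2 or linolenic acid C18:3), or C10:0, or WY14643 or fenofibrate, synthetic PPARα agonists, suspended at 10 mg/ml in carboxymethyl cellulose (0.5%), or that vehicle alone for the controls. The sample titles name a control and a control2 but no run. The split into a first and a later run, and the treatments placed with each control, were inferred here. Array signal, given below, differed between the 2 runs. A first run of 56 arrays held the vehicle controls (3 WT and 5 PPARα -/-), WY14643 (4 and 5), fenofibrate (5 and 5), C18:1 (5 and 5), C20:5 (5 and 4) and C22:6 (5 and 5). A later run of 37 arrays held controls of its own (4 and 4), C18:2 (4 and 5), C18:3 (5 and 5) and C10:0 (5 and 5). The labelled ages were 12 to 20 weeks for first-run controls and for mice given WY14643, and 8 to 24 weeks for all others. The form in which C10:0 was given is not stated in the sources used here.

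Drug metabolism proceeds in phases. Cytochromes P450 of the CYP1, CYP2 and CYP3 families oxidise foreign compounds and steroids, carboxylesterases hydrolyse esters and amides and also lipid esters, and transferases then attach glutathione (GST), glucuronic acid (UGT) or sulfate (SULT). Their transcription in hepatocytes is governed by xenosensors such as PXR (Nr1i2), CAR (Nr1i3), AhR and Nrf2 (Nfe2l2), by liver-enriched factors and by PPARα, and it is known to decline during the acute-phase response.

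Promoters were taken from RefSeq on GRCm38.p6, as windows from 250 bases before a gene's start to 50 after it. Windows were held for 51 of the 59 member genes, 62 windows in all, but for none of Ces1d, Ces1f, Cyp17a1, Cyp2c23, Cyp2d13, Cyp2d22, Gsta4 and Gstt2. The bases before the start are printed for 4 members whose values are described later, read 5′ to 3′ on the strand of the gene. Ces1e (chr8:93229620-93229869, minus strand) is shown as a carboxylesterase of the group that moved together. Sult1d1 (chr5:87569007-87569256, minus strand) moved in 4 treatment comparisons, and Gstp3 (chr19:4059448-4059697, minus strand) differed between the genotypes. Gsta3 (chr1:21240335-21240584, plus strand) fell with C22:6 in PPARα -/- mice. Capitals mark GCGTG, the core bound by AhR and Arnt, on either strand in Sult1d1 and Gstp3, and TGACNNNGC, the core of the antioxidant response element, in Gsta3.
Ces1e: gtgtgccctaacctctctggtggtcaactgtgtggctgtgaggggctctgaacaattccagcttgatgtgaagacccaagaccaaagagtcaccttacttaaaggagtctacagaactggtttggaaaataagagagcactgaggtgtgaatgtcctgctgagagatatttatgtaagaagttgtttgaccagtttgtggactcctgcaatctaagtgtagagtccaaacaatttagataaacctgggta
Sult1d1: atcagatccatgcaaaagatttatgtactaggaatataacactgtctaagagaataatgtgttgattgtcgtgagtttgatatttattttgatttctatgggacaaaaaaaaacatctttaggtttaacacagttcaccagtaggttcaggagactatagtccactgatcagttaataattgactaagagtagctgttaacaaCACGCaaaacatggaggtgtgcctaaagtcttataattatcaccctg
Gstp3: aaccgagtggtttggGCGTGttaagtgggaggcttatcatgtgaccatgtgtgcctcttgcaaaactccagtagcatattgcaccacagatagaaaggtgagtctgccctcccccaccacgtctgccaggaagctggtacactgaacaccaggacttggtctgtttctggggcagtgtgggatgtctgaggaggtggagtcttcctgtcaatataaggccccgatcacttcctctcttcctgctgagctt
Gsta3: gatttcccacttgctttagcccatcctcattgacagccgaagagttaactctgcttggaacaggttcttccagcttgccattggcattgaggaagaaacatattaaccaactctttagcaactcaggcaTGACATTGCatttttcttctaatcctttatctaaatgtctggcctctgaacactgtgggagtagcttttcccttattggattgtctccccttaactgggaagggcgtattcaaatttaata

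An exact repeat of AGGTCA with 1 base between, a form bound by PPARα with RXR, was searched on both strands. It was found in 0 of the 62 member windows and in 0.0396% of all 32851 windows. A match this rare cannot show whether the members lack such elements. GCGTG was found in 10 member windows (16.1%, against 32.4% of all), and TGACNNNGC in 4 (6.45%, against 12.4%). The core in the Sult1d1 window lay at positions -47 to -43 from the start and was read from the opposite strand, that of Gstp3 lay at -235 to -231, and that of Gsta3 lay at -121 to -113. In Gstm5 a GCGTG overlapped a TGACNNNGC. The Ces1e window held none of the 3.

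The 2 runs differed in level: the median signal of an array was 136 to 145 in the first run and 154 to 168 in the later one, so each group was set against the controls of its own run, and the treatments of a run and genotype shared those controls. Of 3 Ppara probesets, 1 separated the genotypes, with at most 7.93 on the log2 scale in PPARα -/- livers and at least 8.10 in WT livers. The hepatocyte list (Alb, Ttr and 5 others) was at a mean of 12.1 to 13.2 on every array. In whole liver, fewer cells of a type and less RNA per cell cannot be told apart.

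3 arrays stood apart within their own groups, in acute-phase signal and in some of these enzymes. The mean log2 signal of 6 acute-phase genes (Saa1, Saa2, Lcn2, Orm2, Hp, Hpx) was 8.78 and 10.54 in WT controls 1 and 3 of the first run but 12.51 in WT control 2, and that array had the lowest Ces1d, Ces1f and Gstt2 and the highest Cyp3a13 of the 3. In the later run it was 8.96, 8.89 and 11.13 in WT controls 2, 3 and 4 but 13.24 in WT control 1, whose Ces1d (8.93 against 10.75 to 11.22) and Gstt2 (9.20 against 10.04 to 10.09) were again the lowest and whose Cyp3a13 was the highest (11.84 against 10.29 to 11.09). Replicate 2 of C22:6 in PPARα -/- mice had the highest acute-phase value of its group, 12.60 against 10.35 to 11.43, and the lowest Ces1d, 7.92 against 8.28 to 10.28. Replicates 3 and 5 of that group had Ces1d at 8.28 and 8.52 with acute-phase values of 11.20 and 11.01. Arrays of another group also lay above 12.60. Replicates 1, 2 and 5 of C10:0 in PPARα -/- mice were at 13.03, 12.63 and 12.75, with Ces1d at 9.94, 9.97 and 9.33. The results are therefore given with and without the 3 arrays, and the part of the acute-phase response in them was not tested.

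**Figure D1:**
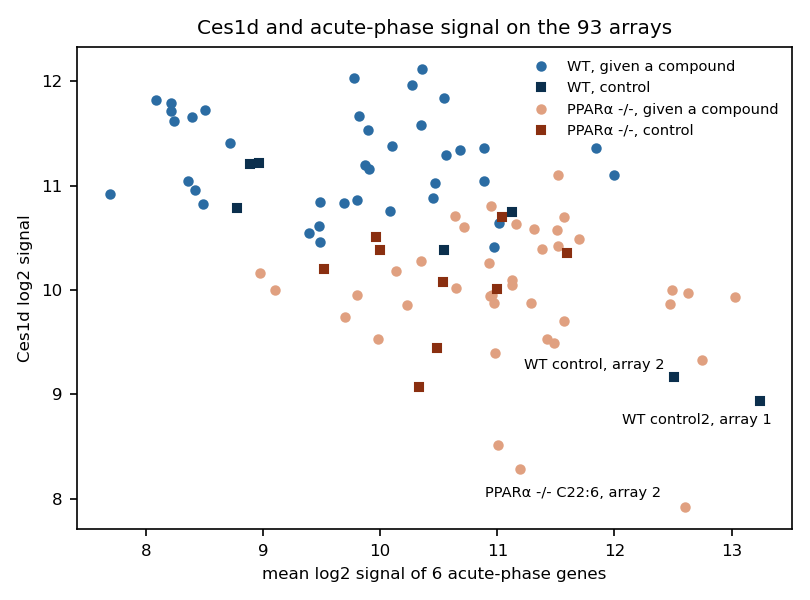
Log2 signal of Ces1d (vertical axis) against the mean log2 signal of 6 acute-phase genes (horizontal axis) on each of the 93 arrays, with circles for mice given a compound, squares for controls and colours for genotype. The labelled arrays, replicate 2 of the first WT controls, replicate 1 of the later WT controls and replicate 2 of C22:6 in PPARα -/- mice, lie at 12.51, 13.24 and 12.60 on the horizontal axis and at 9.17, 8.93 and 7.92 on the vertical axis.

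The question asked of each treatment was which of these enzymes it moved, and whether the same happened without PPARα. A probeset was called where limma's adjusted p was under 0.05. In WT mice WY14643 moved 15 of the 67 member probesets (6 higher and 9 lower), fenofibrate 7 (4 and 3), C22:6 3 (all higher), C18:3 5 (3 and 2), C10:0 3 (2 and 1) and C20:5, C18:1 and C18:2 none. The shares of all 10349 tested probesets called were 26.7% with WY14643 (12.5% higher, 14.1% lower), 13.5% with fenofibrate (7.39% and 6.08%), 5.77% with C22:6, 3.41% with C18:3, 1.59% with C10:0, 0.56% with C20:5, 0.464% with C18:2 and 0% with C18:1. The shares of the members called were 22.4% with WY14643, 10.4% with fenofibrate and 4.48% with C22:6, each below that background. They were 7.46% with C18:3 and 4.48% with C10:0, each above it, by counts of 5 and 3 probesets. Of these, 3 with C18:3 were probesets of Ces1d and 2 with C10:0 were probesets of Sult1d1. Both counts include Sult1c2, described later as at the edge of measurement. At an unadjusted p under 0.05, 3 members passed with C20:5, 1 with C18:1 and 8 with C18:2, and array weights called 2 with C18:2.

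In PPARα -/- mice the order of the treatments was another. C22:6 lowered 19 of the 67 member probesets and raised none, against 14.3% of all probesets called (6.08% higher, 8.26% lower). C18:3 raised 4 and lowered 3 (background 10.4%), C10:0 raised 4 and lowered 2 (6.92%), and C18:1 lowered 1 (1.13%). As shares of the members these were 28.4% with C22:6, 10.4% with C18:3, 8.96% with C10:0 and 1.49% with C18:1. WY14643, fenofibrate, C20:5 and C18:2 moved none, against backgrounds of 0%, 0.0773%, 0.058% and 0.358%. At an unadjusted p under 0.05, 2 members passed with WY14643, 5 with fenofibrate, 0 with C20:5 and 7 with C18:2, and array weights called 2 with WY14643. Of the 55 genes, 26 were called in at least 1 of the 16 comparisons and 29 in none. The matching share over all tested genes was not counted, so these numbers do not set the members apart.

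**Figure D2:**
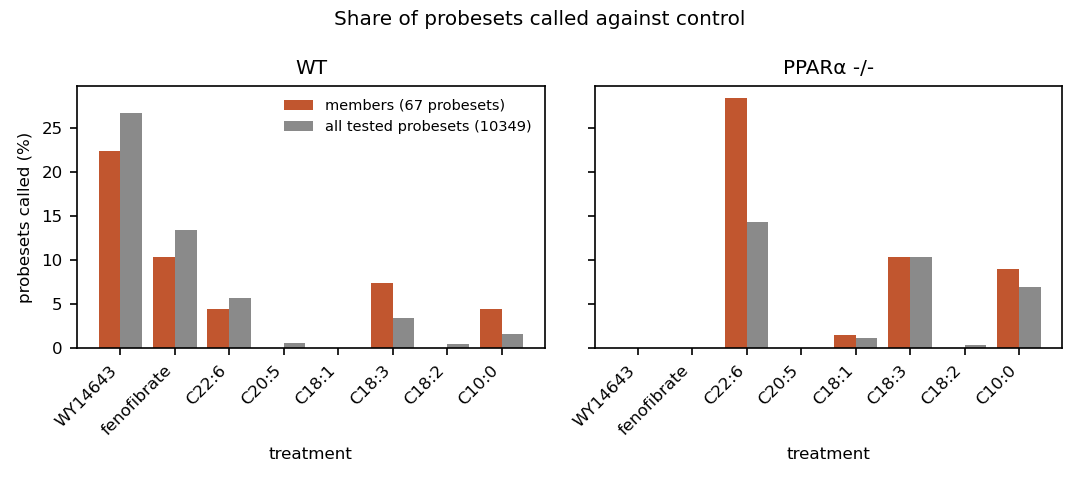
Percentage of probesets called (adjusted p under 0.05) against the controls of the same genotype and run, for the 67 member probesets and for all 10349 tested probesets, in WT mice on the left and PPARα -/- mice on the right. For C22:6 in PPARα -/- mice the bars stand at 28.4% and 14.3%, and without replicate 2 of that group 1 member was called, against 3.71% of all probesets.

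**Figure D3:**
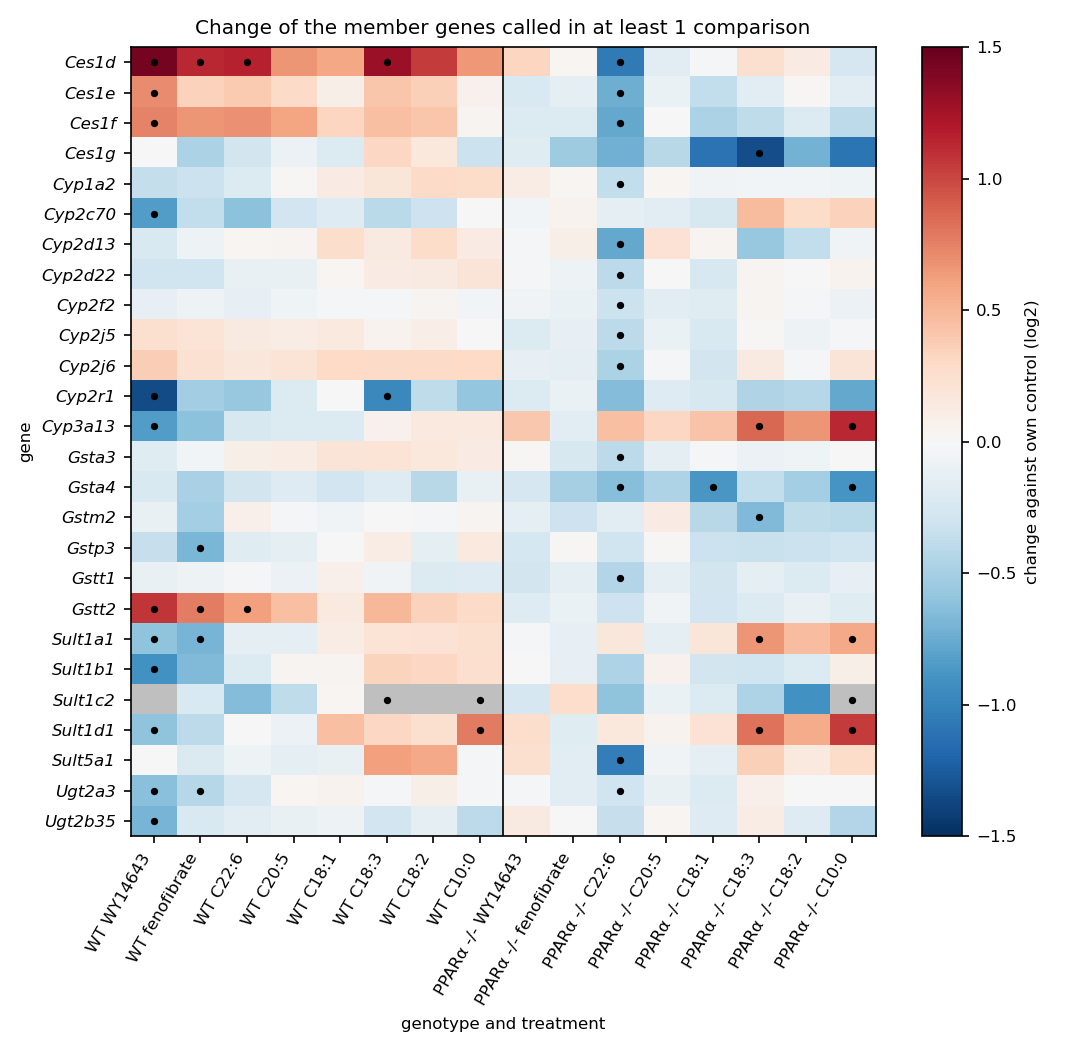
Change on the log2 scale against own control (colour) of the 26 member genes called at least once, in rows by family, for the 8 treatments in WT mice and the 8 in PPARα -/- mice, in columns. Dots mark calls and grey cells a group at the floor of the arrays; the dots of WT mice lie in Ces1d, Ces1e, Ces1f and Gstt2 as rises and in Sult, Ugt and Cyp genes and Gstp3 as falls, apart from the rise of Sult1d1 with C10:0.

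Carboxylesterases and a theta-class transferase were the members that the agonists raised in WT mice. Ces1d, a carboxylesterase that also hydrolyses stored triglyceride, rose with WY14643 by 1.44 ± 0.38 on the log2 scale (SE, 2.71-fold, adjusted p = 0.0027), with fenofibrate by 1.13 ± 0.37 (adjusted p = 0.028), with C22:6 by 1.15 ± 0.37 (0.046) and with C18:3 by 1.29 ± 0.34 (0.015). Its log2 signal in the first WT controls was 10.79, 9.17 and 10.39, and with WY14643 it was 11.72, 11.62, 11.04 and 11.82. It was 11.20, 10.92, 10.96, 11.72 and 11.41 with fenofibrate, and 11.66, 10.89, 11.16, 11.79 and 10.84 with C22:6. Every array of these 3 groups lay above the highest control. With C20:5 it was 10.41 to 11.38 and with C18:1 10.54 to 10.84, which overlapped the controls, and these changes of 0.66 (95% interval -0.07 to 1.39) and 0.58 (-0.15 to 1.31) did not pass the test. In the later run the controls were at 8.93, 11.22, 11.21 and 10.75, and C18:3 gave 11.84, 12.12, 12.03, 11.53 and 11.58, again without overlap.

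The other 2 Ces1d probesets moved alike, by 1.20 and 1.32 with WY14643, 1.01 and 1.20 with fenofibrate and 1.29 and 1.21 with C18:3, all called, and by 0.91 and 0.95 with C22:6, of which only the second was called. Ces1e rose with WY14643 by 0.71 ± 0.25 (adjusted p = 0.028) and Ces1f, a close relative, by 0.75 ± 0.25 (adjusted p = 0.017). The Ces1f probeset is one that the array's design marks as shared by several transcripts and 1 of the Ces1d probesets as one that may bind others, so signal could be shared between these near-identical genes. Of the other carboxylesterases tested, Ces1g, Ces2a, Ces2e and Ces2g, none was called with WY14643 in WT mice.

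These rises leaned on the control with the highest acute-phase signal of its group. Without WT control 2 the Ces1d change was 0.96 with WY14643 (adjusted p = 0.088), 0.65 with fenofibrate (adjusted p = 0.35) and 0.68 with C22:6 (adjusted p = 0.42), and those of Ces1e and Ces1f with WY14643 were 0.51 and 0.27 (adjusted p = 0.2 and 0.49). Without WT control 1 of the later run the C18:3 change of Ces1d was 0.76 (adjusted p = 0.28), and it was 1.24 (adjusted p = 0.052) without replicate 3 of C18:3. The call of Ces1d was also lost with fenofibrate without its replicates 4 and 5 (1.01 and 1.09), and with C22:6 without WT control 3 (1.29) or C22:6 replicates 1 and 4 (1.05 and 1.02). That of Ces1e with WY14643 was lost without WT control 3 (0.71) and WY14643 replicate 1 (0.61). The mean signal of the acute-phase genes was 8.09 to 8.51 on the 4 WY14643 arrays, below the 8.78 to 12.51 of the controls. With fenofibrate it was 7.69 to 9.87, which overlapped the controls. Of the 6 genes, 5 and 4 were called lower, against 14.1% and 6.08% of all probesets. Their changes without WT control 2 were not taken.

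Gstt2, a theta-class glutathione S-transferase, rose with both agonists and with C22:6 in WT mice, by 1.08 ± 0.18 (2.11-fold, adjusted p = 2.7e-06), 0.77 ± 0.17 (adjusted p = 0.00078) and 0.61 ± 0.17 (adjusted p = 0.021). The first WT controls were at 9.41, 8.65 and 9.57. WY14643 gave 10.33, 10.27, 10.28 and 10.27, and fenofibrate 10.03, 9.69, 9.87, 10.01 and 10.31, all above the controls. C22:6 gave 10.13, 9.70, 9.44, 9.82 and 10.02, of which 1 lay within the range of the controls. C20:5 followed with 0.46 (95% interval 0.11 to 0.80) and C18:1 with 0.14 (-0.20 to 0.49), neither called, and in the later run C18:3 with 0.50, C18:2 with 0.34 and C10:0 with 0.29 (adjusted p = 0.062, 0.43 and 0.41).

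The rise of Gstt2 with WY14643 was called whichever array was left out, at 0.79 to 1.26. With fenofibrate it was 0.49 (adjusted p = 0.082) without WT control 2. With C22:6 it was 0.33 (adjusted p = 0.39) without that control, 0.53 (0.079) without C22:6 replicate 1 and 0.56 (0.061) without replicate 5. In PPARα -/- mice Gstt2 stayed at 8.02 to 9.08 in all groups of the first run, and no treatment was called.

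**Figure D4:**
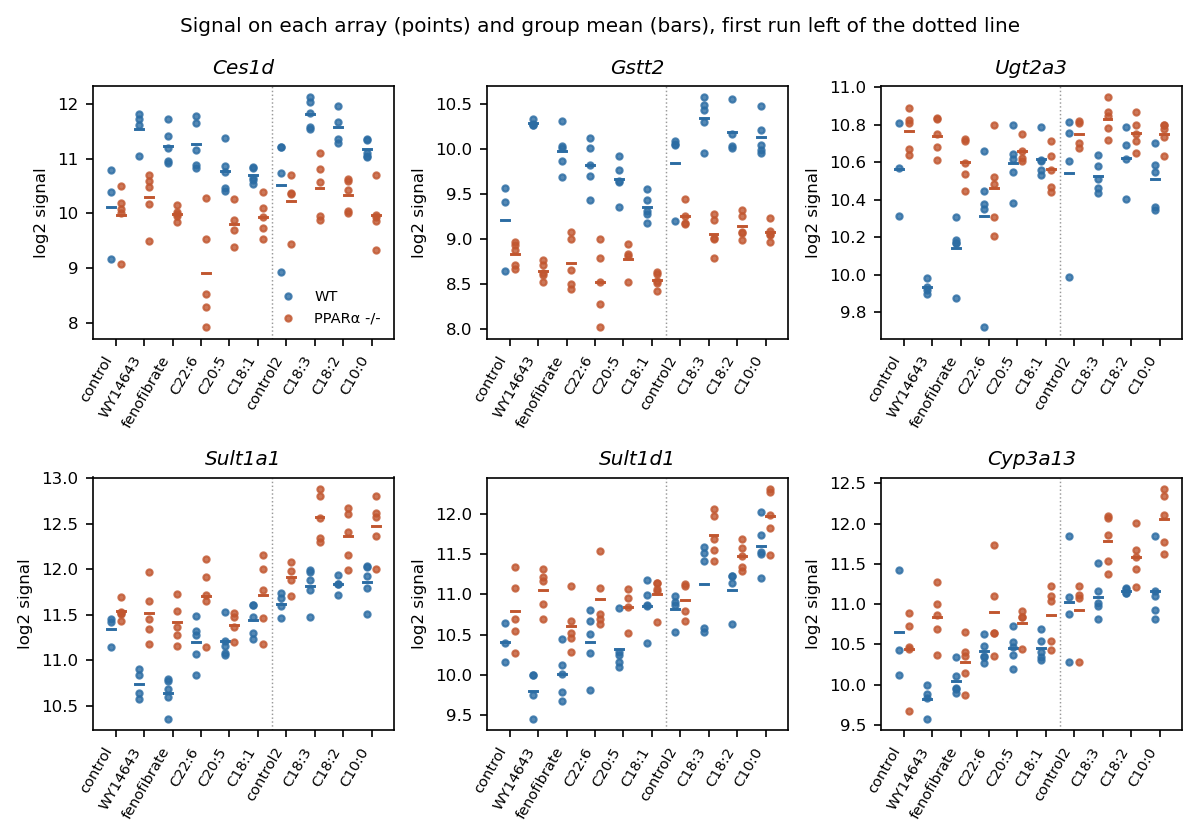
Log2 signal of 6 member genes on every array (points) with the group means (bars), for WT and PPARα -/- mice in each treatment group, the first run left of the dotted line and the later run right of it. Gstt2 with WY14643 lies at 10.27 to 10.33 in WT mice against at most 9.57 in their controls, and Sult1a1 with fenofibrate at 10.35 to 10.79 against at least 11.14.

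Sult1a1 and Ugt2a3, both conjugating enzymes, fell with each agonist in WT mice. Sult1a1, the phenol sulfotransferase, fell by 0.60 ± 0.18 with WY14643 (adjusted p = 0.007) and by 0.70 ± 0.17 with fenofibrate (adjusted p = 0.0021). Its signal was 11.14, 11.45 and 11.42 in the controls, 10.83, 10.57, 10.90 and 10.63 with WY14643 and 10.60, 10.35, 10.77, 10.68 and 10.79 with fenofibrate. Neither treated group reached the controls, and both calls held without any 1 array. Ugt2a3, a glucuronosyltransferase, fell by 0.63 ± 0.13 with WY14643 (adjusted p = 0.00013), from 10.81, 10.31 and 10.57 to 9.98, 9.90, 9.93 and 9.92, and by 0.42 ± 0.13 with fenofibrate (adjusted p = 0.015), to 10.17, 9.87, 10.18, 10.31 and 10.17. The fall with WY14643 held without any 1 array, at 0.51 to 0.76, whereas with fenofibrate the change was -0.30 (adjusted p = 0.18) without WT control 1, -0.42 (0.051) without WT control 3 and -0.36 (0.063) without fenofibrate replicate 2.

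The other falls with WY14643 were those of Cyp2r1, a vitamin D hydroxylase (-1.34 ± 0.31, adjusted p = 0.00042), Sult1b1 (-0.91 ± 0.26, adjusted p = 0.005), Cyp3a13 (-0.84 ± 0.26, adjusted p = 0.011), Cyp2c70, which hydroxylates bile acids (-0.83 ± 0.24, adjusted p = 0.0046), Ugt2b35 (-0.69 ± 0.20, adjusted p = 0.0067) and Sult1d1 (-0.60 ± 0.23, adjusted p = 0.046). The Cyp2r1 signal was 6.90, 5.98 and 6.44 in the controls and 5.28, 4.87, 5.33 and 4.91 with WY14643, without overlap. The treated arrays lay close to their floor, 4.88 on average, so the size of this fall is uncertain. It also fell with C18:3, by 0.97 ± 0.27 (adjusted p = 0.026), from 5.87, 6.86, 6.83 and 6.23 to 5.71, 5.66, 4.01, 5.99 and 6.03, where the groups overlapped. Gstp3 fell with fenofibrate by 0.69 ± 0.24 (adjusted p = 0.045). By family, the 15 probesets called with WY14643 were 5 of Ces and 1 of Gst upward, and 4 of Sult, 2 of Ugt, 2 of Cyp2 and 1 of Cyp3 downward.

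Leaving out single arrays ended some of these. Without WT control 2 the change with WY14643 was -0.45 for Cyp3a13 (adjusted p = 0.26) and -0.48 for Sult1d1 (0.19). Sult1d1 was also not called without WT control 1 (-0.61) or WY14643 replicates 2 and 3 (-0.59 and -0.49), nor Ugt2b35 without WT controls 1 and 3 (-0.52 and -0.58). The C18:3 change of Cyp2r1 was -0.60 (adjusted p = 0.28) without C18:3 replicate 3, and it lost its call without the later WT controls 2 and 3 (-0.83 and -0.84). Gstp3 with fenofibrate kept its call in 1 of 8 fits. In all, the WT count with WY14643 was 10 without WT control 2 (2 higher, 8 lower; background then 23.6%), that with fenofibrate 2 (0 and 2; 10.2%) and that with C22:6 1, lower (2.93%). The fenofibrate count was also 4 without fenofibrate replicate 2 and the C22:6 count 0 without C22:6 replicate 1, while it was 1 without WT control 3 or C22:6 replicate 4. The C18:3 count was 3, all lower, without WT control 1 of the later run (2.12%) and 3 without replicate 3 of C18:3 (1.6%).

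Whether the receptor mattered was asked by the difference of the effects between genotypes. For WY14643 it was called in 9 member probesets (6 higher and 3 lower in PPARα -/- mice; background 16.5%), for fenofibrate in 2 (7.03%) and for C22:6 in 6, all lower (2.94%). For C20:5, C18:1, C18:3, C18:2 and C10:0 it was called in none, against 0.029%, 0%, 1.05%, 0% and 0.0193% of all probesets, with 1, 5, 14, 2 and 4 members under an unadjusted p of 0.05. The effect of WY14643 on Gstt2 was lower in PPARα -/- mice by 1.26 ± 0.24 (adjusted p = 4e-05), that on Ces1f by 0.96 ± 0.32 (adjusted p = 0.029) and that on Ces1e by 0.94 ± 0.33 (adjusted p = 0.037). It was higher there for Cyp3a13 (1.24 ± 0.34, adjusted p = 0.0061), Cyp2r1 (1.14 ± 0.40, adjusted p = 0.037), Sult1d1 (0.87 ± 0.30), Ugt2b35 (0.83 ± 0.26) and Ugt2a3 (0.60 ± 0.17). Without WT control 2 the differences were -0.48 for Ces1f (adjusted p = 0.34), -0.74 for Ces1e (0.16), 0.75 for Sult1d1 (0.13) and 0.85 for Cyp3a13 (0.093). Of the 17 fits without 1 array, the call was lost in 10 for Ces1e and for Sult1d1, 8 for Cyp2r1, 5 for Ces1f, 2 for Ugt2b35 (0.65 and 0.71, without WT controls 1 and 3) and 1 for Ugt2a3 (0.48, without WT control 1). For Ces1d with WY14643 the difference was -1.12 ± 0.50 and did not pass (adjusted p = 0.12), nor did that of Sult1a1 (0.58 ± 0.23, adjusted p = 0.073).

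With fenofibrate the difference was called for Gstt2 (-0.87 ± 0.23, adjusted p = 0.01) and for the dimmer probeset of Cyp2j5, an epoxygenase (-1.24 ± 0.38, adjusted p = 0.029). The brighter Cyp2j5 probeset was not called. The Gstt2 difference was -0.59 (adjusted p = 0.14) without WT control 2. Without WT control 2 the WY14643 count of differences was 4 (3 higher, 1 lower; background 13.7%), that of fenofibrate 1 (4.78%) and that of C22:6 0 (0.657%, 20 members under an unadjusted p of 0.05 with all arrays). The fenofibrate count of 2 also ranged from 1 without WT control 3, KO control 1, WT fenofibrate replicate 1 or KO fenofibrate replicates 4 and 5 to 4 without KO control 5, where KO names PPARα -/- mice. The Gstt2 difference with WY14643 was called in every such fit, at -1.44 to -0.98.

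In PPARα -/- mice C22:6 had the widest effect on the members, and all of it downward. The 19 probesets belonged to Ces1d (3), Ces1e, Ces1f, Cyp1a2, Cyp2d13 (2), Cyp2d22 (2), Cyp2f2, Cyp2j5, Cyp2j6, Gsta3 (2), Gsta4, Gstt1, Sult5a1 and Ugt2a3. Ces1d fell by 1.07 ± 0.32 (adjusted p = 0.017), Sult5a1 by 1.03 ± 0.29 (0.011), Cyp2d13 by 0.77 ± 0.23 (0.016), Ces1f by 0.76 ± 0.21 (0.0088), Ces1e by 0.73 ± 0.21 (0.013) and Gsta4, which detoxifies lipid aldehydes, by 0.64 ± 0.22 (0.04). The falls of Cyp2j6 (0.48), Gstt1 (0.45), Cyp2j5, Cyp2d22 and Gsta3 (0.39 each) and Cyp1a2, the caffeine-oxidising P450 (0.37), were smaller. The median change over the 67 members was -0.31, against -0.01 over all probesets, and 9 members lay above 0.

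The per-array values showed how unequal the group was. Ces1d was 10.01, 10.08, 10.50, 10.20 and 9.07 in the PPARα -/- controls and 9.53, 7.92, 8.28, 10.28 and 8.52 with C22:6. Arrays 2, 3 and 5 lay below all controls and arrays 1 and 4 within their range. Gsta4 was 7.87, 7.88, 7.43, 7.85 and 7.93 in the controls and 7.25, 5.95, 8.16, 7.43 and 6.93 with C22:6, with replicate 3 above every control. Ugt2a3 was 10.64 to 10.89 in the controls and 10.49, 10.21, 10.31, 10.80 and 10.52 with C22:6. In each of the 19 called probesets the 2 groups overlapped. The share of overlap among all called probesets was not counted, so it cannot be said whether this sets the members apart.

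Without C22:6 replicate 2, the array with the highest acute-phase signal of its group, 1 member was called (background 3.71%), Gstt1. The changes of Ces1d, Ces1f and Sult5a1 were then -0.82, -0.60 and -0.88 (adjusted p = 0.13, 0.083 and 0.078). Without replicate 3 the count was 6 (10.4%), and without KO control 1 it was 11 (9.17%), while it was 25 (18.6%) without replicate 4. Markers of some other cell types moved in the same comparison, where 6.08% of all probesets were called higher and 8.26% lower. Of 8 macrophage markers 4 rose (Cd68 by 1.53, Vsig4 by 1.27, Csf1r by 0.95 and Clec4f by 0.83). Their list mean was 6.92 to 8.06 on the C22:6 arrays and 4.67 to 7.31 on the controls. None of 5 stellate markers was called, nor was Ptprc, the lymphocyte marker measured. Of 4 endothelial markers, Lyve1 rose by 2.00 and Clec4g fell by 0.47. Of 7 hepatocyte markers none was called, with a list mean of 12.37 to 12.76 against 12.45 to 12.62. In the zonal hepatocyte lists the pericentral Cyp1a2 (-0.37) and Rgn (-0.29) and the periportal Ass1 (-1.36) and Cyp2f2 (-0.32) were called lower. Cyp1a2 and Cyp2f2 are members themselves. The acute-phase mean was 10.35 to 12.60 against 9.53 to 11.00, with none of the 6 genes called. The part of these in the fall of the members was not tested.

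With C22:6 Ces1d moved in opposite directions in the 2 genotypes. The difference of the effect was -2.22 ± 0.48 for Ces1d (adjusted p = 0.0036), -1.45 ± 0.31 for Ces1f (0.0031), -1.13 ± 0.32 for Ces1e (0.034) and -0.92 ± 0.23 for Gstt2 (0.013), and no other member gene was called. Ces1d rose by 1.15 in WT mice and fell by 1.07 in PPARα -/- mice, each called. Without WT control 2 the difference was -1.74 for Ces1d (adjusted p = 0.09), -0.98 for Ces1f (0.13), -0.93 for Ces1e (0.25) and -0.64 for Gstt2 (0.25). That of Ces1e lost its call in 9 of 18 fits without 1 array, and that of Gstt2 also without C22:6 replicate 2 of the PPARα -/- mice (-0.80, adjusted p = 0.053).

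**Figure D5:**
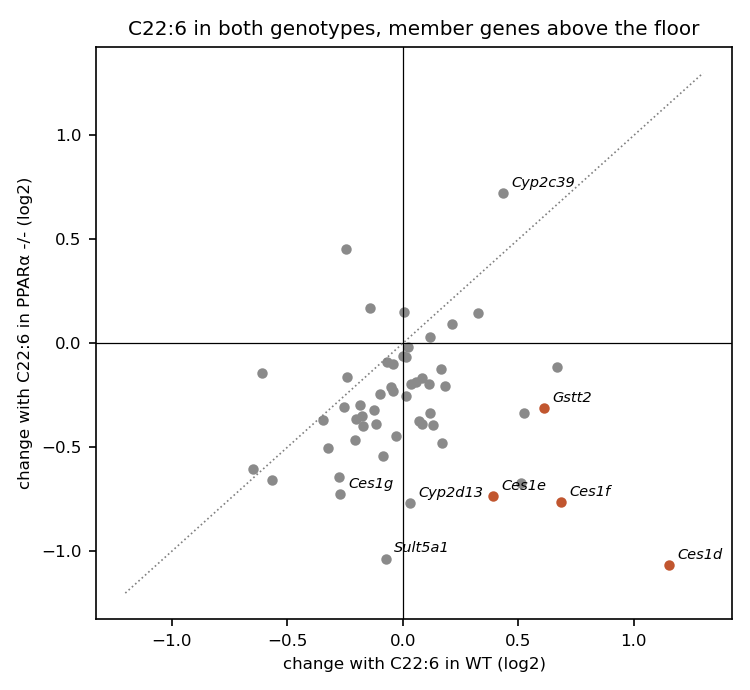
Change with C22:6 on the log2 scale in WT mice (horizontal axis) and in PPARα -/- mice (vertical axis) for each member gene above the floor of the arrays, with the dotted line where both are equal. The coloured genes, Ces1d, Ces1e, Ces1f and Gstt2, are those whose difference of effect was called, and Ces1d lies at 1.15 and -1.07.

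In the later run the members called higher in PPARα -/- mice were Sult1d1, Sult1a1 and Cyp3a13, a P450 of steroid and drug oxidation. The share of members called in either direction was 10.4% with C18:3, the same as that of all probesets. With C10:0 it was 8.96%, against 6.92% of all probesets. Sult1d1, which sulfates catecholamines, rose by 0.81 ± 0.21 with C18:3 (adjusted p = 0.0069) and by 1.05 ± 0.21 with C10:0 (adjusted p = 0.00082), from 10.67, 10.80, 11.11 and 11.13 in the controls to 11.69, 11.97, 11.56, 11.41 and 12.05 and to 12.27, 12.31, 11.49, 11.98 and 11.82. Both groups lay wholly above the controls, and its second probeset moved by 0.73 and 1.04, each called. Sult1a1 rose by 0.67 ± 0.16 with C18:3 (adjusted p = 0.0034) and by 0.56 ± 0.16 with C10:0 (adjusted p = 0.02). It was 11.98, 11.88, 11.70 and 12.08 in the controls, 12.34, 12.80, 12.56, 12.29 and 12.88 with C18:3, without overlap, and 12.62, 12.58, 12.00, 12.36 and 12.81 with C10:0, with 1 array inside their range. Cyp3a13 rose by 0.86 ± 0.23 (adjusted p = 0.01) and 1.13 ± 0.23 (adjusted p = 0.0011), from 11.23, 11.07, 10.28 and 11.11 to 11.54, 12.07, 11.86, 11.38 and 12.09 and to 12.43, 12.35, 11.77, 11.63 and 12.11, again without overlap.

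C18:2 gave 0.55, 0.46 and 0.66 for Sult1d1, Sult1a1 and Cyp3a13, none called (adjusted p = 0.2, 0.15 and 0.16). In WT mice Sult1d1 rose with C10:0 by 0.78 ± 0.21 (adjusted p = 0.03), from 10.87, 10.97, 10.53 and 10.90 to 11.53, 11.50, 11.21, 11.73 and 12.03, without overlap, while with C18:3 it was 0.31 (adjusted p = 0.56). The differences between genotypes did not pass: for Cyp3a13 with C10:0 it was 0.99 ± 0.33 (adjusted p = 0.55) and with C18:3 0.79 ± 0.32 (0.24), and for Sult1a1 with C18:3 0.46 ± 0.22 (0.34). The rises of Sult1d1 and of Sult1a1 with C18:3 in PPARα -/- mice and of Cyp3a13 and Sult1d1 with C10:0 were called without any 1 array, whereas Cyp3a13 with C18:3 was at 0.65 (adjusted p = 0.082) without KO control 3 of the later run. Sult1a1 with C10:0 lost its call without KO controls 2 and 3 (0.55 and 0.49) or replicates 1 and 5 (0.53 and 0.48), and Sult1d1 in WT mice without WT controls 1 and 3 (0.79 and 0.68) or replicates 2, 4 and 5 (0.80, 0.74 and 0.67). The WT C10:0 count of 3 was 1 without replicate 5 (background 0.406%).

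Falls went beside these rises. With C18:3 in PPARα -/- mice Ces1g, a hepatic carboxylesterase, fell by 1.33 ± 0.41 (adjusted p = 0.028), from 6.93, 6.95, 6.59 and 6.92 to 4.47, 5.43, 6.16, 5.70 and 5.81, without overlap, and Gstm2 by 0.66 ± 0.23 (adjusted p = 0.046). The dimmer probeset of Cyp2d13 was also lower, by 0.95 ± 0.31, while the brighter one, at -0.57, was not called. Ces1g with C18:3 kept its call in 3 of 9 fits without 1 array and Gstm2 in 3 of 9. The count of 7 was 3, all higher, without C18:3 replicate 5 (background 3.55%), 4 without KO control 2 of the later run (7.19%) and 4 without C18:3 replicate 2 (5.74%).

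Gsta4 fell in 3 of the PPARα -/- comparisons. Besides C22:6 it fell with C18:1, by 0.88 ± 0.22 (adjusted p = 0.032), to 6.86, 6.88, 6.74, 7.64 and 6.43 against 7.43 to 7.93 in the controls, and with C10:0, by 0.89 ± 0.23 (adjusted p = 0.012), from 8.90, 8.63, 7.88 and 8.68 to 7.62, 7.56, 7.87, 8.01 and 7.12. In both the groups overlapped by single arrays. It was the only member called with C18:1, and the call was lost in 7 of 10 fits without 1 array, with changes of -1.06 to -0.76 over the 10 fits. Without KO control 3, 3 members were called (2.96%). With C10:0 it was lost without KO control 1 of the later run (-0.76) and without replicate 5 (-0.76). The members' changes with C10:0 stood beside a rise of 4 of 6 acute-phase genes (Lcn2 by 3.35, Saa2 by 3.33, Saa1 by 2.16, Hp by 0.52), whose mean was 11.57 to 13.03 on the C10:0 arrays and 10.00 to 11.59 in the controls, and the part of this was not tested.

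Sult1c2 sat at the edge of measurement. It was called lower with C18:3 and C10:0 in WT mice and with C10:0 in PPARα -/- mice (adjusted p = 0.0052, 0.0059 and 0.0041), and in each of these groups every array lay at or under the 10th percentile of its array, which is the floor used here. The log2 signals were 4.07, 5.39, 5.78 and 5.33 in the WT controls of the later run, 3.42, 3.96, 3.76, 4.56 and 3.42 with C18:3 and 4.31, 3.64, 4.44, 2.95 and 3.09 with C10:0. In PPARα -/- mice they were 5.80, 5.80, 4.91 and 5.93 in the controls and 4.07, 3.67, 4.64, 4.37 and 4.54 with C10:0. WT control 1 lay among the treated arrays, whereas in PPARα -/- mice the groups were apart. Against the floor of the arrays these are falls of at least 1.18-fold, 1.16-fold and 1.66-fold. Ugt2b37 was at the floor in nearly every group, and no change is given for it.

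The controls showed how the genotypes differed before any treatment. PPARα -/- controls were called higher than WT controls in 6 member probesets and lower in 1, in both the first run (background 8.93%) and the later one (7.43%). Gstm2, a mu-class transferase, was higher by 1.00 ± 0.25 in the first run (9.61 ± 0.50 against 8.61 ± 0.35, SD; adjusted p = 0.0038) and by 1.09 ± 0.24 in the later one (adjusted p = 0.00075). Gstp3 was higher by 0.80 ± 0.24 (adjusted p = 0.023) and 1.04 ± 0.23 (0.0012), and Cyp1a2 by 0.54 ± 0.14 (0.0073) and 0.64 ± 0.14 (7e-04), each without overlap in either run. The dimmer probesets of Cyp2d22 (0.52 and 0.48) and Gsta3 (0.60 and 0.60) were also higher in both. Their brighter probesets, at 0.22 and 0.32 for Cyp2d22 and 0.35 and 0.33 for Gsta3, were not called. In 1 run only, Cyp2a12 (0.30, first) and Ces2g (0.73, later) were called higher and Ces2a (-0.54, first) and Gstt2 (-0.59, later) lower.

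Without WT control 2 the first-run count was 3 (background 4.59%), with Gstm2 at 0.81 (adjusted p = 0.081) and Gstp3 at 0.74 (0.12); it was also 3 without WT control 3 and 4 without KO controls 2 or 5. The later-run count was 5 to 8 without any 1 array. Of 7 pericentral hepatocyte genes, a list that holds Cyp1a2 itself, 3 were called higher in the first run and 4 in the later one. Both counts include Cyp1a2. The others were Slc1a2 (by 1.11) and Oat (by 0.95) in the first run, and Slc1a2, Oat and Lhpp in the later one. The part of this was not tested.

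Related compounds at the same volume and time were set against each other in WT mice in 7 pairs: C20:5 with C18:1, C22:6 with C18:1, C22:6 with C20:5, C18:3 with C18:2, C18:2 with C10:0, C18:3 with C10:0, and WY14643 with fenofibrate, at 1 dose. No member probeset was called in any, against 1.35%, 4.29%, 0.0387%, 0%, 0.00966%, 0.0193% and 1.88% of all probesets. At an unadjusted p under 0.05, 3, 9, 2, 1, 6, 8 and 7 members passed. With array weights 4, 5, 0, 0, 1, 0 and 6 were called. The nearest to the threshold were Cyp3a25, a P450 lower with WY14643 than with fenofibrate by 0.44 (95% interval -0.70 to -0.18, adjusted p = 0.055), Gstt2, higher with C22:6 than with C18:1 by 0.47 (0.17 to 0.77, 0.058), and Cyp2r1, lower with WY14643 than with fenofibrate by 0.83 (-1.36 to -0.29, 0.091).

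C22:6, which has 1 double bond more than C20:5 and 2 more carbons, differed from it in Ces1d by 0.49 (-0.14 to 1.13) and in Gstt2 by 0.15 (-0.14 to 0.45). C18:3, with 1 double bond more than C18:2, differed from it in Ces1d by 0.25 (-0.42 to 0.92) and in Sult1d1 by 0.07 (-0.34 to 0.48). Both pairs leave room for differences in either direction. For Cyp2e1, the ethanol-oxidising P450, the intervals of all 7 pairs lay between -0.15 and 0.12.

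The members that did not move are as much a part of the picture. Over the 16 comparisons Cyp2e1 changed by -0.03 to 0.06, Gstp1, the pi-class transferase, by -0.11 to 0.12, Cyp2a12 by -0.09 to 0.12 and Ugt2b36 by -0.13 to 0.17. Their log2 signals in the first WT controls were 13.44 ± 0.02 (SD, n = 3) for Cyp2e1 and 13.40 ± 0.09 for Gstp1. The 2 brightest probesets of the other families there were those of Ces2a (10.78 ± 0.22) and Ces1f (10.74 ± 0.83), Cyp1a2 (10.99 ± 0.10) and Cyp17a1 (7.62 ± 0.49), Cyp3a25 (12.07 ± 0.14) and Cyp3a13 (10.66 ± 0.68), Sult1a1 (11.34 ± 0.17) and Sult1d1 (10.41 ± 0.24), and Ugt2b5 (11.89 ± 0.25) and Ugt2b1 (11.84 ± 0.29), with Cyp2d9 (12.70 ± 0.10) beside Cyp2e1 and Gsta3 (12.62 ± 0.30) beside Gstp1. These are signals of different probesets and do not rank the amounts of their transcripts. Cyp2d9 and Cyp2d10, male-biased P450s, ranged from -0.23 to 0.12 and from -0.24 to 0.06. Of the 29 genes never called, 20 stayed within 0.5 in every comparison, and the widest changes among the rest, those of Cyp17a1 (up to 1.18), Gstt3 (up to 1.18) and Cyp2c39 (down to -1.08), did not pass the test. How many of all tested genes stayed within such limits was not counted.

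Other genes of drug metabolism were counted for comparison. Of all tested probesets, 26.7% were called with WY14643 in WT mice (12.5% higher), 13.5% with fenofibrate and 5.77% with C22:6. In PPARα -/- mice these shares were 14.3% with C22:6 and 10.4% with C18:3. Of 21 other oxidising, reducing and conjugating enzymes, 4 rose with WY14643 in WT mice and none fell: Fmo4 (adjusted p = 0.00023) and Fmo1 by 0.83, both flavin monooxygenases, Ephx1 by 0.49 and Ephx2 by 0.47 (epoxide hydrolases). Fenofibrate raised 2 and C22:6 raised 4, and Fmo1 and Fmo4 were among both. In PPARα -/- mice C22:6 raised 1 (Fmo2, by 1.87) and lowered 4 (Adh4 by 1.16, Cyb5b by 0.79, Aldh1a1 by 0.76 and Cyb5r3 by 0.67). C18:3 there raised 3 and lowered 2 of the 21.

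The same shares of all probesets, 26.7% with WY14643 in WT mice among them, stand beside the counts that follow. Of 14 regulators, WY14643 in WT mice raised Nr1i2 (PXR) by 1.21 and Nfe2l2 (Nrf2) by 0.79, and lowered Ahr by 1.35, Rxra by 0.70 and Stat5b by 0.69. Fenofibrate moved 4 of them, Nfe2l2, Nr1i2, Ahr and Rxra, by 0.88, 0.96, -1.16 and -0.44. C22:6 in PPARα -/- mice lowered Cebpa by 0.61 and Rxra by 0.27. C18:3 there raised Nr1i2 by 1.64, Hnf4a by 0.72 and Arnt by 0.55, and lowered Nfe2l2 by 0.75. Of 10 genes that supply cofactors, Ugp2 and Gclm fell with WY14643 in WT mice, by 0.60 and 0.30, and Papss2, which makes the sulfate donor, fell with C22:6 in PPARα -/- mice by 0.60. Periportal genes were lower with WY14643 in WT mice, 5 of 6 (Ass1 by 2.22, Cdh1 by 1.55). Of 7 pericentral genes 1 was called, Slc1a2, which fell by 2.25, and their list mean was 9.86 to 10.18 against 10.46 to 10.59 in the controls. The part of zonation in the members' changes was not tested.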

How the data were processed

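RNA from 93 mouse livers, 1 mouse to an array, was hybridised to Affymetrix arrays of the mouse genome. The deposited values were linear signal intensities for 11463 probesets, normalised by the authors with GCRMA 2.20 (per the submitters' processing notes), of which 51 controls were left out. Symbols came from the platform annotation, and all 71 members carried a current RefSeq symbol.

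Intensities were taken as log2. Probesets with an interquartile range of at least 0.25 were tested (10349) with limma 3.58.1 in R 4.3.3 (with version 1.17.8 of data.table), with 1 mean per group, on 83 arrays without C10:0 and on all 93 for C10:0. Replicates are separate mice. P-values were adjusted by Benjamini-Hochberg over all probesets tested, and a call was an adjusted p under 0.05. A gene takes the value of its tested probeset with the highest mean signal. A group whose arrays all lay at or under the 10th percentile of their array was taken as at the floor and gave a bound. Figures were drawn with Python 3.11.15 and matplotlib 3.10.9.

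Named were the members called (at most 12 genes a comparison by size of change), those called between genotypes, and the 2 brightest of each family. Values by array are given for genes called in at least 3 of 16 comparisons and the largest rise and fall of each genotype. The members, lists and tests were chosen with earlier results of these data known. The scripts were tested on simulated data. Alternatives were the filter, normalization, array weights, variance trend, arrays in the fit, threshold, replicate block, the mean over probesets, and leaving out each array. Replicate numbers were taken to pair samples where each pair's deviations from the group means correlated above 0.1, which held for WY14643 in PPARα -/- mice (5 pairs, r 0.112 to 0.304). The sample titles state no pairing, and arrays of different numbers were not compared, so this criterion does not establish one. Plasma, PCR and GO data were not analysed here.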

Additional observations from a re-analysis of the deposited data

Results flagged for a closer look

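In 13 of the 190 sets of arrays tested (10 genes in groups of 4 or 5 mice), 1 array lay apart from the others by Dixon's criterion, which chance alone meets in about 1 set in 20. Sult1d1 was at 10.66 on the log2 scale in replicate 4 of C18:1 in PPARα -/- mice (others 11.04 to 11.15), at 10.83 in replicate 5 of C20:5 in WT mice (10.10 to 10.29) and at 10.64 in replicate 4 of C18:2 in WT mice (11.14 to 11.22). Cyp3a13 was at 10.44 in replicate 1 of C20:5 in PPARα -/- mice (10.84 to 10.91) and at 10.28 in replicate 3 of the later PPARα -/- controls (11.07 to 11.23). That same control was also the lowest in Sult1c2, at 4.91 (5.80 to 5.93), and in Ces1g, at 6.59 (6.92 to 6.95). Gsta4 was at 7.43 in replicate 3 of the first PPARα -/- controls (7.85 to 7.93) and at 8.55 in replicate 2 of C18:2 in WT mice (8.06 to 8.11). Gstt2 was at 10.33 in replicate 1 of WY14643 in WT mice (10.27 to 10.28), a narrow group, and at 9.20 in replicate 1 of the later WT controls (10.04 to 10.09). Cyp2r1 was at 5.28 in replicate 4 of C18:2 in PPARα -/- mice (6.25 to 6.60) and at 4.01 in replicate 3 of C18:3 in WT mice (5.66 to 6.03).

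The effect of a treatment differed between the genotypes, by limma's test of the difference itself, for 8 genes with WY14643: Gstt2 (-1.26, PPARα -/- minus WT, log2), Ces1f (-0.96), Ces1e (-0.94), Ugt2a3 (0.60), Ugt2b35 (0.83), Sult1d1 (0.87), Cyp2r1 (1.14) and Cyp3a13 (1.24). With fenofibrate it differed for Gstt2 (-0.87). With C22:6 it differed for Ces1d (-2.22), Ces1f (-1.45), Ces1e (-1.13) and Gstt2 (-0.92).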

How the results depend on the processing

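Of 1352 recomputed values of the 72 named changes, none reversed and 297 lost their call. The member counts stayed within 1.5 times of those reported without the filter on variation, with that filter over all 93 arrays, with a filter on dim probesets and after quantile normalization, which moved the share of calls that were higher from 57.1% to 71.4% for fenofibrate in WT mice and from 85.7% to 100% for the first-run controls. Array weights gave 12 members for fenofibrate, 5 for C22:6, 8 for C18:3 and 2 for C18:2 in WT mice, 2 for WY14643 and 10 for C18:1 in PPARα -/- mice, 18 for the WY14643 difference, 12 for the first-run controls, and in the pairs 4 (C20:5 and C18:1), 5 (C22:6 and C18:1), 1 (C18:2 and C10:0) and 6 (WY14643 and fenofibrate). One fit of all 93 arrays gave 1 for C22:6 against C18:1 and 1 for WY14643 against fenofibrate, and a variance trend gave 1 for the latter. With only the 2 groups compared, and so fewer arrays behind the spread, 3 members were called for fenofibrate and 0 for C22:6, C18:3 and C10:0 in WT mice, 0 for C22:6 and C18:1, 2 for C18:3 and 3 for C10:0 in PPARα -/- mice, and 1 and 3 for the first-run and later controls. An unadjusted p under 0.01 gave 5 for C22:6 and 3 for C18:2 in WT mice and 4 each for C18:1 and C18:2 in PPARα -/- mice. The replicate block, on the same-numbered arrays of 2 groups alone, gave 3 for WY14643 and 0 for fenofibrate, C22:6, C18:3 and C10:0 in WT mice and 0 for C22:6, C18:1, C18:3 and C10:0 in PPARα -/- mice. For WY14643 in PPARα -/- mice, the only comparison to meet the criterion of correlation, the count was 0 with the block as without it. No sample title states a pairing of arrays.

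Leaving out 1 array at a time gave counts of 10 to 17 for WY14643, 2 to 7 for fenofibrate, 0 to 4 for C22:6, 3 to 6 for C18:3, 0 to 1 for C18:2 (1 without WT control 2 or 3 of the later run) and 1 to 3 for C10:0 in WT mice. In PPARα -/- mice the counts were 1 to 25 for C22:6, 0 to 3 for C18:1, 3 to 7 for C18:3 and 4 to 9 for C10:0. For the differences between genotypes they were 4 to 10 for WY14643, 1 to 4 for fenofibrate and 0 to 9 for C22:6, for the controls 3 to 10 and 5 to 8, and for the pairs 0 to 1 for C22:6 against C18:1 and for WY14643 against fenofibrate. All others stayed at 0. The cause of these shifts was not tested. With 3 to 5 arrays a group, and 3 controls behind each first-run comparison of a treatment with control in WT mice, the number of arrays limits the precision.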
